A study of Mus musculus with 2 samples.

Results

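Bile acids are made from cholesterol in hepatocytes, exported into bile, taken back up from portal blood and made again under feedback control. The 10 genes described here cover that cycle in mouse liver and were picked by their symbols out of the 32285 genes listed in each of 2 single-cell libraries, all 10 being present in both. They are the synthesis enzymes Cyp7a1, Cyp8b1 and Cyp27a1, the nuclear receptors Nr1h4 (FXR) and Nr0b2 (SHP), the sinusoidal uptake transporters Slc10a1 (NTCP), Slco1a1 and Slco1b2, the canalicular export pump Abcb11 (BSEP) and the sulfotransferase Sult2a8. The set was put together with earlier results of these libraries known, so the differences between libraries are given as descriptions.

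The WT library was made from liver of control mice, and the N-LKO library from liver together with tumor of mice in which albumin-Cre, active in hepatocytes, had deleted a loxP-flanked NgBR gene (Nus1). NgBR is a subunit of cis-prenyltransferase, which makes the dolichol carrier used in protein glycosylation. The mice were male and on a C57BL6 background, and after an initial period on chow both groups received the test diet for 16 weeks. That diet is named WD in the treatment labels and HFD in the sample titles of both libraries. Hepatocytes and nonparenchymal cells were mixed in equal parts, and a smaller part of tumor cells was added for N-LKO. With 1 library per group no test across mice was possible, intervals cover counting error only, and genotype, tumor tissue and library cannot be told apart.

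The classic route to bile acids begins with CYP7A1, the rate-limiting enzyme, which hydroxylates cholesterol. CYP8B1 then sets the share of cholic acid, and CYP27A1 oxidizes the side chain and also opens the alternative route. Bile acids bind FXR in the nucleus of the hepatocyte, FXR raises SHP, and SHP represses the synthesis genes. NTCP takes up conjugated bile acids with sodium, the OATP transporters encoded by Slco1a1 and Slco1b2 take up bile acids and many other organic anions, and BSEP pumps bile salts into the canaliculus. Sulfation adds a charged group that makes a bile acid more soluble and easier to excrete, and SULT2A8 is a hepatic bile acid sulfotransferase of mice.

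The deposited values were counts of unique molecular identifiers (UMIs), 85522287 over 100171 barcodes in WT and 87575064 over 90147 barcodes in N-LKO. After filters on depth, mitochondrial share and doublets, 18434 WT and 19851 N-LKO cells were kept, of which 122 in each library carried a barcode found among the kept cells of the other. Cells were named from marker genes, and a name ending in "-like" means that class. The WT library had 9950 hepatocyte-like cells (54.0% of kept cells, 16791608 UMIs) and the N-LKO library 4099 (20.6%, 8470868 UMIs). Nus1, the deleted gene, stood at 72.9 CPM (counts scaled to 1e6 UMIs) in WT against 34.0 CPM in the hepatocyte-like cells of N-LKO, a log2 ratio of -1.10 (95% interval -1.29 to -0.91). A 3′ tag reads the end of the transcript and not the deleted part, so it checks the label only in part.

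The hepatocyte-like cells fell into 6 clusters that were almost wholly of 1 library each, with all genes of the bile acid list kept out of the variable genes used to cluster. The main WT cluster held 8180 WT and 101 N-LKO cells, and the main N-LKO cluster held 1973 N-LKO and 122 WT cells. A second N-LKO cluster of 1994 cells (3 from WT) and a WT cluster of 310 cells (8 from N-LKO) were rich in Malat1, a long RNA retained in the nucleus, at 20098 and 36285 CPM against 8846 CPM in the main WT cluster and 4547 CPM in the main N-LKO cluster. WT also had a Malat1-poor cluster of 1168 cells and a cluster of 167 cells with high Glul, the glutamine synthetase of hepatocytes around the central vein, at 6653 CPM. Hepatocyte markers were weak in the Malat1-rich N-LKO cluster, where 3 of 10 stood at least 2-fold above T-like cells of that library and the summed markers reached 13870 CPM against 47871 CPM in the main N-LKO cluster and 23295 CPM in free RNA of the same library. In the WT clusters 2 (Malat1-poor) to 7 (main) of the 10 markers stood that far above T-like cells of WT. Free RNA of WT held 34409 CPM of the summed markers, above 3 of the 4 WT clusters (27369 to 32109 CPM), so the hepatocyte-like name of these clusters rests on their marker score relative to other clusters. All 9 cholangiocyte markers had UMIs in the main N-LKO cluster and 8 of 9, all but Cldn4, in the Malat1-rich one, with sums of 301 and 377 CPM against 4586 CPM in N-LKO cholangiocyte-like cells. The corresponding sums were 180 CPM in the main WT cluster, where Cldn4 alone was at 0, and 245 CPM in the Malat1-rich WT cluster. The part of these markers in the differences below was not tested. Slco1a1, Sult2a8 and Slc10a1, though not used to cluster, were among the 10 leading genes of the main WT cluster, so their differences between clusters are descriptions for that reason too.

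Because Malat1-rich cells made up 310 of 9950 hepatocyte-like cells in WT and 1994 of 4099 in N-LKO, every member is given over 3 pairs of cells. These are all hepatocyte-like cells, the main WT against the main N-LKO cluster, and the Malat1-rich WT against the Malat1-rich N-LKO cluster. The last 2 pairs were chosen after the data had been seen, and the clusters of a pair are alike in Malat1 rank. Summed hepatocyte markers were close between the main clusters (WT 49697 CPM, N-LKO 47871 CPM). They differed between the Malat1-rich clusters (WT 27369 CPM, N-LKO 13870 CPM). Nus1 was at 75.3 CPM in WT against 38.7 CPM in N-LKO between the main clusters (-0.96, -1.20 to -0.73). Between the Malat1-rich clusters it was at 38.4 and 27.9 CPM, a difference within counting error (-0.48, -1.11 to 0.24).

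Sequence upstream of the genes is shown for 5 of the members. Promoters of RefSeq on GRCm38.p6, 250 bases before to 50 bases after a transcription start, were found for 9 of the 10 members as 11 windows. The windows of Slco1a1, Sult2a8, Slc10a1 and Cyp8b1, the members with the widest contrast between libraries, and of Slco1b2, whose level was close in both, follow 5′ to 3′ on the gene's own strand. Capitals mark AGGTCA, the half-site of many nuclear receptors (TGACCT when it lies on the other strand), GTTAAT, an HNF1 half-site, and TTCNNNGAA, a STAT site.
Slco1a1 (chr6:141946913-141947212, reverse strand): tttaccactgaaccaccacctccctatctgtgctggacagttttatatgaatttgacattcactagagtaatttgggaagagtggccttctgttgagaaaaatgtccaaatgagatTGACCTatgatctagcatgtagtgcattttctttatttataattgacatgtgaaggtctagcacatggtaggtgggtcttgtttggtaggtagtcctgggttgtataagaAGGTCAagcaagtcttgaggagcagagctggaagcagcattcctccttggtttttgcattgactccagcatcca
Sult2a8 start 1 (chr7:14446538-14446837, reverse strand): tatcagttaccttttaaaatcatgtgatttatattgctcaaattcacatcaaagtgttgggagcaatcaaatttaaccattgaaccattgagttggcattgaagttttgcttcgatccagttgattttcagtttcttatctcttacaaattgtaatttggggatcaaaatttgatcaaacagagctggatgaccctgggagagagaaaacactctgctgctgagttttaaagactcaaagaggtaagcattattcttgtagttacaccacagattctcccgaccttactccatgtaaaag
Sult2a8 start 2 (chr7:14438502-14438801, reverse strand): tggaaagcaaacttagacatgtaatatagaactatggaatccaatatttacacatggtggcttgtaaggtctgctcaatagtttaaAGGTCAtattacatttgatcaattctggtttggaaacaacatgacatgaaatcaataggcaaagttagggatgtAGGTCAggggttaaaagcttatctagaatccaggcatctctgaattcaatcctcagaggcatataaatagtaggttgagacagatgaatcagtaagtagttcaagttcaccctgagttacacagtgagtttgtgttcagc
Slc10a1 start 1 (chr12:80968656-80968955, reverse strand): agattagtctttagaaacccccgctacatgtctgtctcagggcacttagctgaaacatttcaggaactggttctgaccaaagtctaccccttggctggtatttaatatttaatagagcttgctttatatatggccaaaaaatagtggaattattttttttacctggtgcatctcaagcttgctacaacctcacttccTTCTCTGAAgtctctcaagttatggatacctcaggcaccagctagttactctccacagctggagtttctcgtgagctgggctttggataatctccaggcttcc
Slc10a1 start 2 (chr12:80968030-80968329, reverse strand): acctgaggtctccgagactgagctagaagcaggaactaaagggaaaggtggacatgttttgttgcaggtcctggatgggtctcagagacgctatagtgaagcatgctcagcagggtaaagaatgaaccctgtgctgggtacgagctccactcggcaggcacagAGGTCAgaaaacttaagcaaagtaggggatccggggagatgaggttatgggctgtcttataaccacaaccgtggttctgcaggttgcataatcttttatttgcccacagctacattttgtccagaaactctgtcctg
Cyp8b1 (chr9:121916256-121916555, reverse strand): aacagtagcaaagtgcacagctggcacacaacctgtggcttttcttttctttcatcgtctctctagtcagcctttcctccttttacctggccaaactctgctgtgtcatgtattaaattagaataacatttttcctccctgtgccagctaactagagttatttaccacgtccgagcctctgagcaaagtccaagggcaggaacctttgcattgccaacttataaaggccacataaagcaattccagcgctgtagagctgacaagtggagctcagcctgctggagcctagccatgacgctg
Slco1b2 (chr6:141629268-141629567, forward strand): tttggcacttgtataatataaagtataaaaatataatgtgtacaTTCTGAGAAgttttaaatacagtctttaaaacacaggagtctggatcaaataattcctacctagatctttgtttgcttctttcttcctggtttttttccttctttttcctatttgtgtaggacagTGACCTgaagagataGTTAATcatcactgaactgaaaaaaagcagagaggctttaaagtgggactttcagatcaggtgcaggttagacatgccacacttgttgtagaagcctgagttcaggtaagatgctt

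AGGTCA lay in 6 of the 11 member windows and in 16.3% of all 32851 RefSeq windows of the same length. Slco1a1 and the second start of Sult2a8 held 2 copies each, the second start of Slc10a1 and Slco1b2 held 1 each, and the windows of Cyp8b1 and of the first start of Sult2a8 held no match of any motif searched. TTCNNNGAA lay in 3 member windows (Nr0b2, the first start of Slc10a1 and Slco1b2) and in 8.30% of all windows, and GTTAAT in 2 (Nr1h4 and Slco1b2) and in 7.1%. The longer NR5A2 site CAAGGTCA, which contains AGGTCA, lay in 0 member windows and in 1.56% of all, and its second form CAAGGCCA in the window of Nr0b2 and in 2.4% of all. Both strands were searched, the gaps at N accept any base, and a match is a run of letters and not a bound site. The window of Slco1b2, the uptake transporter whose level differed least, thus held 3 kinds of match, more than any other window shown.

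In all hepatocyte-like cells, 4 of the 10 members were at least 2-fold lower in N-LKO, namely Slco1a1, Sult2a8, Slc10a1 and Cyp8b1, where 2.38% of the 10598 genes with at least 5 CPM in either library were. Only Nr1h4 of the members was at least 2-fold higher, where 21.2% of genes were. The median log2 ratio was -0.25 over the members and 0.38 over all genes. Between the main clusters the same 4 genes were at least 2-fold lower (3.21% of 9978 genes were) and 0 members were at least 2-fold higher (6.75% of genes were). All 10 ratios lay below 0, 9 of them with their whole interval, and the share of all genes below 0 was not counted. The median was -0.73 against 0.07 over all genes. Between the Malat1-rich clusters Cyp7a1, Abcb11 and Slco1b2 joined these 4 genes, making 7 members at least 2-fold lower (11.8% of 11273 genes were) and 0 higher (17.3% of genes were). The median there was -1.45 against 0.07 over all genes. Since the members were chosen from this contrast, the shares over all genes are printed for scale only.

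**Figure D1:**
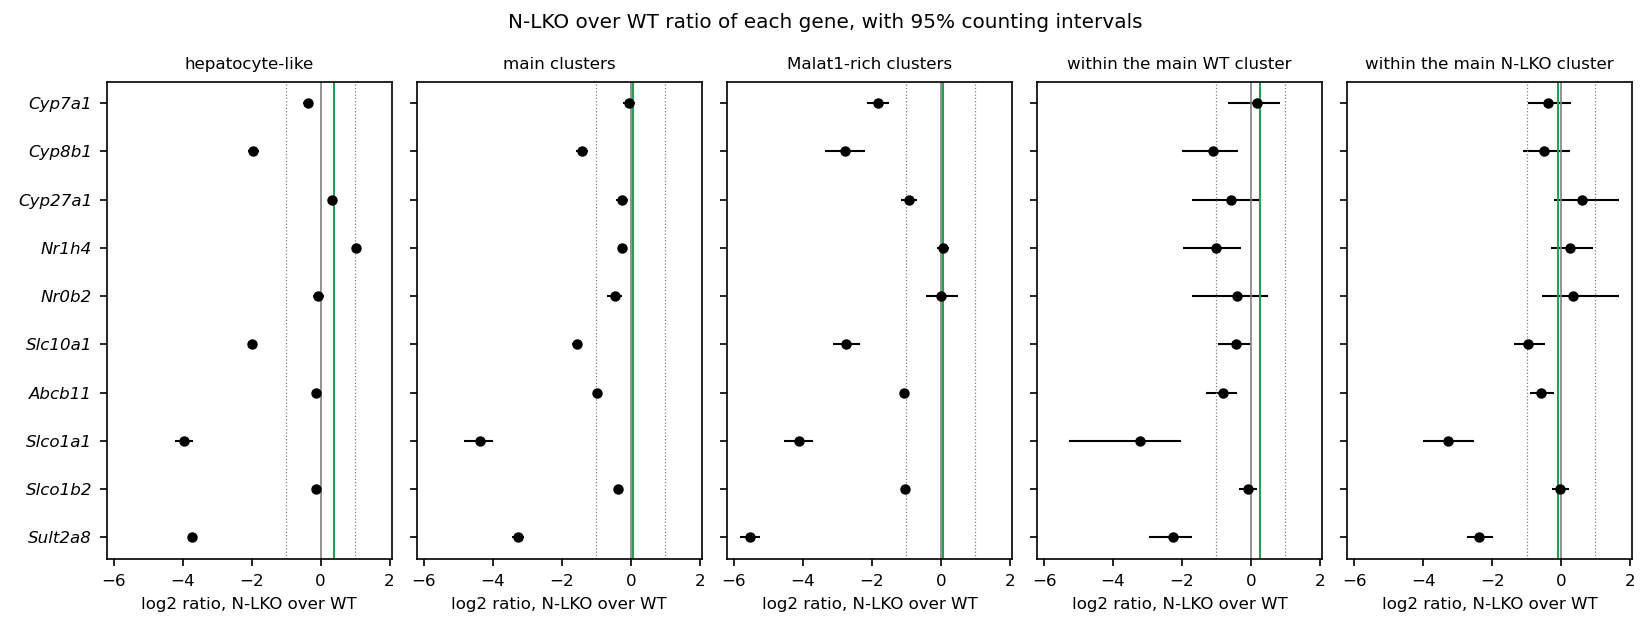
Log2 ratio of N-LKO over WT for the 10 members (rows) in 5 pairs of cells (panels), with 95% exact intervals for counting error, dotted lines at a 2-fold difference and a green line at the median of all genes. Slco1a1 and Sult2a8 lie left of the 2-fold line in all panels, while Nr1h4 moves from 1.03 over all hepatocyte-like cells to -0.25 between the main clusters.

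Among the synthesis enzymes, Cyp8b1 showed the largest difference, and Cyp7a1 and Cyp27a1 differed little or unevenly. Cyp8b1 was at 159.0 CPM in WT against 41.1 CPM in N-LKO over all hepatocyte-like cells (log2 ratio -1.95, -2.12 to -1.79). Between the main clusters it was at 170.9 and 63.9 CPM (-1.42, -1.60 to -1.24), and between the Malat1-rich clusters at 91.1 and 13.3 CPM (-2.78, -3.35 to -2.21). The counting interval of that last N-LKO level (9.9 to 17.5 CPM) overlapped those of T-like (5.7 to 12.8) and endothelial-like cells (6.9 to 13.9) of the library. The level was therefore not clearly above background, and the size of that ratio rests on it. In the 122 WT cells of the main N-LKO cluster, however, Cyp8b1 stood at 87.5 CPM, and the ratio within that cluster was -0.48 with an interval that spans 0 (-1.09 to 0.26). Cyp8b1 was thus lower in N-LKO in every pairing, with the smallest difference among cells that clustered together there.

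Cyp7a1 was at 89.4 CPM in WT against 69.2 CPM in N-LKO (-0.37, -0.51 to -0.23). Its level in the main clusters was 80.5 CPM in WT against 77.8 CPM in N-LKO, a difference within counting error (-0.05, -0.23 to 0.13). Within WT it ran from 38.1 CPM in the Malat1-poor cluster to 201.4 CPM in the Malat1-rich and 555.7 CPM in the Glul-high cluster, a wider range than its difference between the libraries in any pair. The Malat1-rich N-LKO cluster held 56.6 CPM, so that against its WT counterpart the ratio was -1.83 (-2.16 to -1.5). The Glul-high cluster, of 167 WT and 5 N-LKO cells, lay outside both main clusters, so these were not matched for such cells. The part of that in the Cyp7a1 ratio between them was not tested.

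Cyp27a1 was at 93.7 CPM in WT against 117.0 CPM in N-LKO over all hepatocyte-like cells (0.32, 0.20 to 0.44). The direction turned in the cluster pairs, at 86.2 and 72.8 CPM in the main clusters (-0.24, -0.43 to -0.07) and 322.9 and 170.8 CPM in the Malat1-rich ones (-0.92, -1.15 to -0.68). Both libraries had more Cyp27a1 in their Malat1-rich than in their main cluster, and N-LKO had far more cells of that kind.

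Nr1h4, which encodes the bile acid receptor FXR, also turned with the cells compared. It was at 163.7 CPM in WT against 334.1 CPM in N-LKO over all hepatocyte-like cells (1.03, 0.95 to 1.11), the only member past 2-fold higher. In the main clusters it was at 151.7 CPM in WT against 127.8 CPM in N-LKO (-0.25, -0.38 to -0.11), and in the Malat1-rich clusters at 562.8 and 585.7 CPM (0.06, -0.11 to 0.22). The higher pooled level of Nr1h4 in N-LKO was therefore not present in either pair of clusters. In cells thinned to 1000 UMIs each, a Nr1h4 UMI was seen in 14.1% of hepatocyte-like cells of WT and 26.1% of those of N-LKO, but in 13.8% of cells of the main WT and 11.96% of the main N-LKO cluster. Unthinned, these shares were 22.6%, 39.5%, 22.8% and 22.5%.

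Genes with long primary transcripts were higher in the N-LKO pool as a group. With all genes divided into 5 equal groups by genomic span, the median log2 ratio went from -0.07 in the shortest group through 0.12, 0.34 and 0.62 to 0.93 in the longest, while between the main clusters it went from 0.34 in the shortest to -0.04 in the longest. Between the Malat1-rich clusters it again rose with span, from -0.47 in the shortest to 0.39 in the longest group. Nr1h4 spans 79.4 kb and lies in the next-longest group, or in the longest for the Malat1-rich pair. Abcb11 spans 104 kb and lies in the longest. Whether reads in introns were counted is not given in the sources used here, and the part of unspliced or nuclear RNA in these levels was not tested.

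Nr0b2, which encodes the repressor SHP and spans 3.16 kb, was at 60.5 CPM in WT against 57.6 CPM in N-LKO, a difference within counting error (-0.07, -0.23 to 0.09). In the main clusters it was at 62.4 and 45.3 CPM (-0.46, -0.69 to -0.24), and in the Malat1-rich clusters at 71.9 and 73.0 CPM (0.01, -0.44 to 0.51). Across all 8 groups of cluster and library it kept between 33.3 and 73.0 CPM, the narrowest range of the members.

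**Figure D2:**
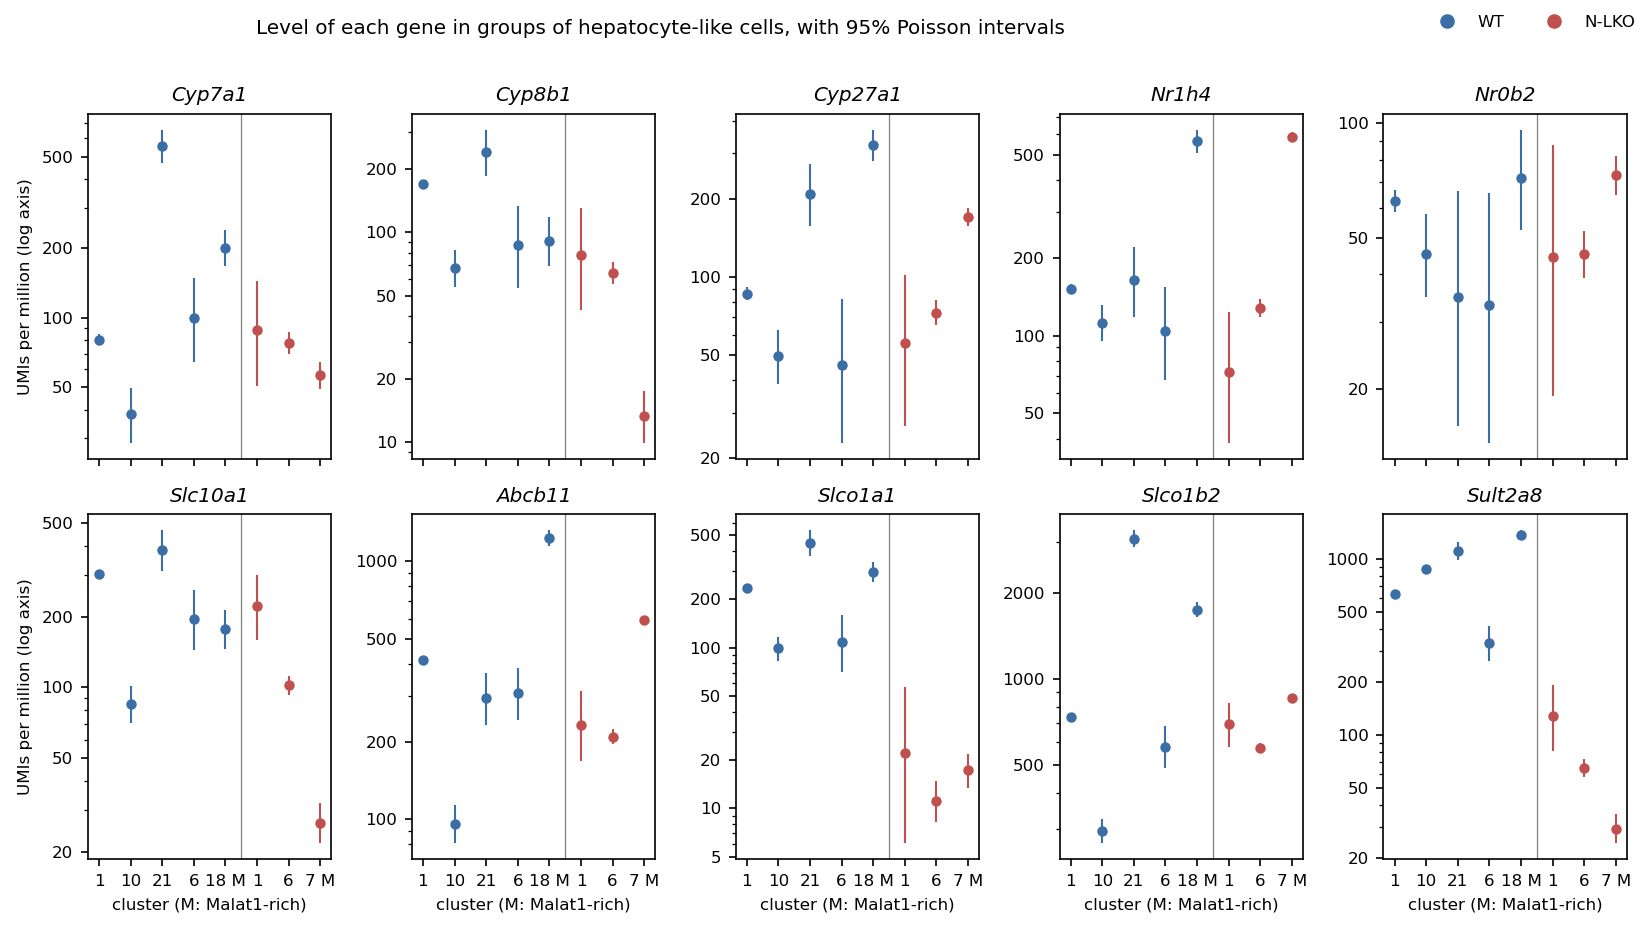
Level of each member (CPM, log axis) in the 8 groups of hepatocyte cluster and library with at least 50 cells, with 95% Poisson intervals. For Slco1a1 and Sult2a8 the 5 WT groups all lie above the 3 N-LKO groups, while the groups of Nr0b2 and Cyp7a1 overlap.

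The uptake transporters parted from each other. Slco1a1 showed the largest ratio of any member over all hepatocyte-like cells, with 3806 UMIs (226.7 CPM) in WT against 123 UMIs (14.5 CPM) in N-LKO (log2 ratio -3.96, -4.24 to -3.71). In the main clusters it was at 234.3 and 11.1 CPM, 20.8-fold lower in N-LKO, and in the Malat1-rich clusters at 297.4 and 17.2 CPM (-4.10, -4.54 to -3.70). The 5 WT groups ran from 98.9 CPM in the Malat1-poor to 450.8 CPM in the Glul-high cluster, and the 3 N-LKO groups from 11.1 to 22.2 CPM, without overlap. How many of all genes part these groups in this way was not counted.

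The difference in Slco1a1 was also seen between cells that shared a cluster. The 101 N-LKO cells of the main WT cluster held 4 UMIs of it (22.2 CPM, 6.0 to 56.8), against 234.3 CPM in the WT cells beside them (-3.23, -5.28 to -2.04). The 122 WT cells of the main N-LKO cluster held 26 UMIs (108.3 CPM), against 11.1 CPM in the N-LKO cells there (-3.29, -3.99 to -2.53). WT cells of the main N-LKO cluster were thus below the main WT cluster and above every N-LKO group. These cells were chosen by their clustering, and Saa1, an acute phase gene, was at 1162 CPM in them against 64.2 CPM in the main WT cluster. The N-LKO cells of the main N-LKO cluster were also high in Saa1, at 791 CPM. They held 476 CPM of Lcn2 and 481 CPM of Spp1, against 10.4 and 23.4 CPM in the main WT cluster. The main clusters thus differed in these genes too, and the part of that in the ratios was not tested.

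Slc10a1 was at 280.9 CPM in WT against 70.5 CPM in N-LKO (-1.99, -2.12 to -1.87). It was at 304.6 and 102.4 CPM in the main clusters (-1.57, -1.72 to -1.43) and at 177.5 and 26.6 CPM in the Malat1-rich clusters (-2.74, -3.14 to -2.34). The counting interval of that last N-LKO level (21.7 to 32.3 CPM) overlapped those of T-like (13.9 to 24.1) and endothelial-like cells (17.5 to 27.8) of the library. The level was therefore not clearly above background, and the size of that ratio rests on it. Within shared clusters the differences were smaller, at 304.6 and 222.0 CPM in the main WT cluster (-0.44, -0.94 to -0.01) and 195.7 and 102.4 CPM in the main N-LKO cluster (-0.95, -1.37 to -0.47). The Malat1-poor WT cluster, at 84.7 CPM, lay among the N-LKO groups, so Slc10a1 overlapped between the libraries where Slco1a1 did not.

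Slco1b2 was close in both libraries, at 772.3 CPM in WT against 709.3 CPM in N-LKO (-0.12, -0.17 to -0.08). In the main clusters it was at 737.1 and 573.2 CPM (-0.36, -0.43 to -0.30), and within the shared clusters the ratios were -0.08 (-0.35 to 0.17) and -0.02 (-0.26 to 0.24). Only the Malat1-rich pair differed by 2-fold, at 1743 and 854 CPM (-1.03, -1.13 to -0.93). In the Glul-high WT cluster it reached 3094 CPM. Slco1a1 and Slco1b2 lie close together on chromosome 6 (141907282 to 141946962 on the reverse strand and 141629518 to 141686646 on the forward strand, GRCm38), so a large and a small difference lay close together there.

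The export pump gene Abcb11 depended on the cells compared. Over all hepatocyte-like cells it was at 417.2 CPM in WT against 383.1 CPM in N-LKO (-0.12, -0.18 to -0.06), whereas the main clusters stood at 416.4 and 209.3 CPM (-0.99, -1.09 to -0.89) and the Malat1-rich clusters at 1236 and 591 CPM (-1.07, -1.18 to -0.95). Like Nr1h4, it was higher in the Malat1-rich than in the main cluster of each library. Within shared clusters N-LKO cells were lower by less, with ratios of -0.82 (-1.31 to -0.40) in the main WT and -0.57 (-0.90 to -0.20) in the main N-LKO cluster.

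Sult2a8 had the largest difference in UMIs of the members, with 11451 (681.9 CPM) in WT hepatocyte-like cells and 438 (51.7 CPM) in those of N-LKO (log2 ratio -3.72, -3.86 to -3.58). The main clusters stood at 629.5 and 64.8 CPM, 9.69-fold lower in N-LKO, and the Malat1-rich clusters at 1364 and 29.5 CPM, 46.1-fold lower. That last N-LKO level lay between those of T-like (26.6 CPM) and endothelial-like cells (32.4 CPM) of the library, so it was not above background. The WT groups ran from 333.2 CPM, in the WT cells of the main N-LKO cluster, to 1364 CPM, and the N-LKO groups from 29.5 to 127.7 CPM, without overlap. That lowest WT level was below those of T-like (456.9 CPM) and endothelial-like cells (456.5 CPM) of WT, so it was not above background either. Within shared clusters the ratios were -2.27 (-2.96 to -1.72) in the main WT cluster and -2.37 (-2.72 to -1.99) in the main N-LKO cluster. The second of these rests on that WT level not above background. Sult2a8 and Slco1a1 were the members whose levels separated all WT from all N-LKO groups of hepatocyte-like cells. This is a description only, since the share of all genes that did so was not counted.

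Barcodes under 500 UMIs carried the same difference, with Sult2a8 at 745.7 CPM in WT against 45.1 CPM in N-LKO, and Slco1a1 at 107.5 and 6.89 CPM. They were taken to hold mostly free RNA, which was not tested, and the lowest held 326 UMIs in WT and 377 in N-LKO. If they do, free RNA by estimate made up at most 31.1% of the UMIs of hepatocyte-like cells in WT and 20.5% in N-LKO. That gives at most 231.8 of the 681.9 CPM of Sult2a8 in WT and 9.2 of the 51.7 CPM in N-LKO. After thinning to 1000 UMIs, 47.6% of hepatocyte-like cells in WT and 4.64% in N-LKO held a Sult2a8 UMI, beside 35.7% and 2.79% of T-like cells, which should lack it (median depths 1519, 1776, 1191 and 1360 UMIs). For Slco1a1 the shares were 19.7% and 1.44%, beside 4.87% and 0.57% of T-like cells. Unthinned, 61.7% of hepatocyte-like cells in WT and 8.39% in N-LKO held Sult2a8, and 29.8% and 2.81% held Slco1a1. In the Malat1-rich N-LKO cluster 3.11% of cells (2.39 to 3.97) held Sult2a8, not above T-like (2.10 to 3.63) or endothelial-like cells (3.34%), while 5.78% did in the main N-LKO cluster.

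Hepatocytes differ along the axis from portal to central vein, and several members are known to follow it. Hepatocyte-like cells of the main cluster of each library were ordered by the share of pericentral UMIs among those of 12 pericentral and 11 periportal genes, none of them a member, and divided into 3 equal ranges named periportal, middle and pericentral. These are ranges of a score set within each library and not cell types, and they are not alike. Glul was at 57.8, 380 and 1046 CPM from the periportal to the pericentral range in WT and at 18.3, 70.0 and 420 CPM in N-LKO, and periportal Cyp2f2 at 1178 and 561 CPM. Cells without a UMI of either list (3 in WT and 13 in N-LKO) were left out, and the Glul-high WT cluster was not part of these ranges.

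Cyp7a1 had the steepest pericentral rise of the members in WT, at 36.0, 84.3 and 130.5 CPM from the periportal to the pericentral range, a log2 ratio of 1.86 (1.62 to 2.10). In N-LKO the levels were 58.2, 81.6 and 95.3 CPM, a log2 ratio of 0.71 (0.31 to 1.12). The intervals of the ratios did not overlap, N-LKO being higher in the periportal and lower in the pericentral range, between ranges that were set separately and differ in their marker levels. In the Malat1-rich clusters the ratio was 2.63 (1.88 to 3.57) in WT and 0.37 (-0.16 to 0.91) in N-LKO.

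Slco1b2 had a pericentral lean in both libraries, with 500, 775 and 983 CPM in WT (0.97, 0.91 to 1.05) and 315, 490 and 930 CPM in N-LKO (1.56, 1.41 to 1.72). Its N-LKO level was lower in the periportal and middle ranges and close to WT in the pericentral range. Cyp27a1 leaned the same way in WT (0.68, 0.48 to 0.88) and in N-LKO (1.06, 0.63 to 1.5). Abcb11 was flat in WT (0.04, -0.05 to 0.13) and had a ratio of 0.38 (0.15 to 0.61) in N-LKO.

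What Sult2a8 and Slco1a1 UMIs remained in the main N-LKO cluster lay mostly in the pericentral range. Sult2a8 was at 436, 698 and 793 CPM in WT (0.86, 0.79 to 0.94) and at 25.0, 46.9 and 124.7 CPM in N-LKO (2.30, 1.80 to 2.87). Slco1a1 was nearly level in WT, at 215.1, 241.6 and 250.1 CPM (0.22, 0.10 to 0.34), and in N-LKO had 3 UMIs in each of the periportal and middle ranges and 43 in the pericentral range (3.69, 2.25 to 6.23). In the Malat1-rich N-LKO cluster the ratio of Slco1a1 was 0.26 (-0.65 to 1.2), so the slope was not seen there. Cyp8b1, Nr1h4, Nr0b2 and Slc10a1 had ratios between -0.18 and 0.06 in the main clusters of both libraries. For these 4 all intervals spanned 0 but that of Slc10a1 in WT (-0.16, -0.26 to -0.05).

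**Figure D3:**
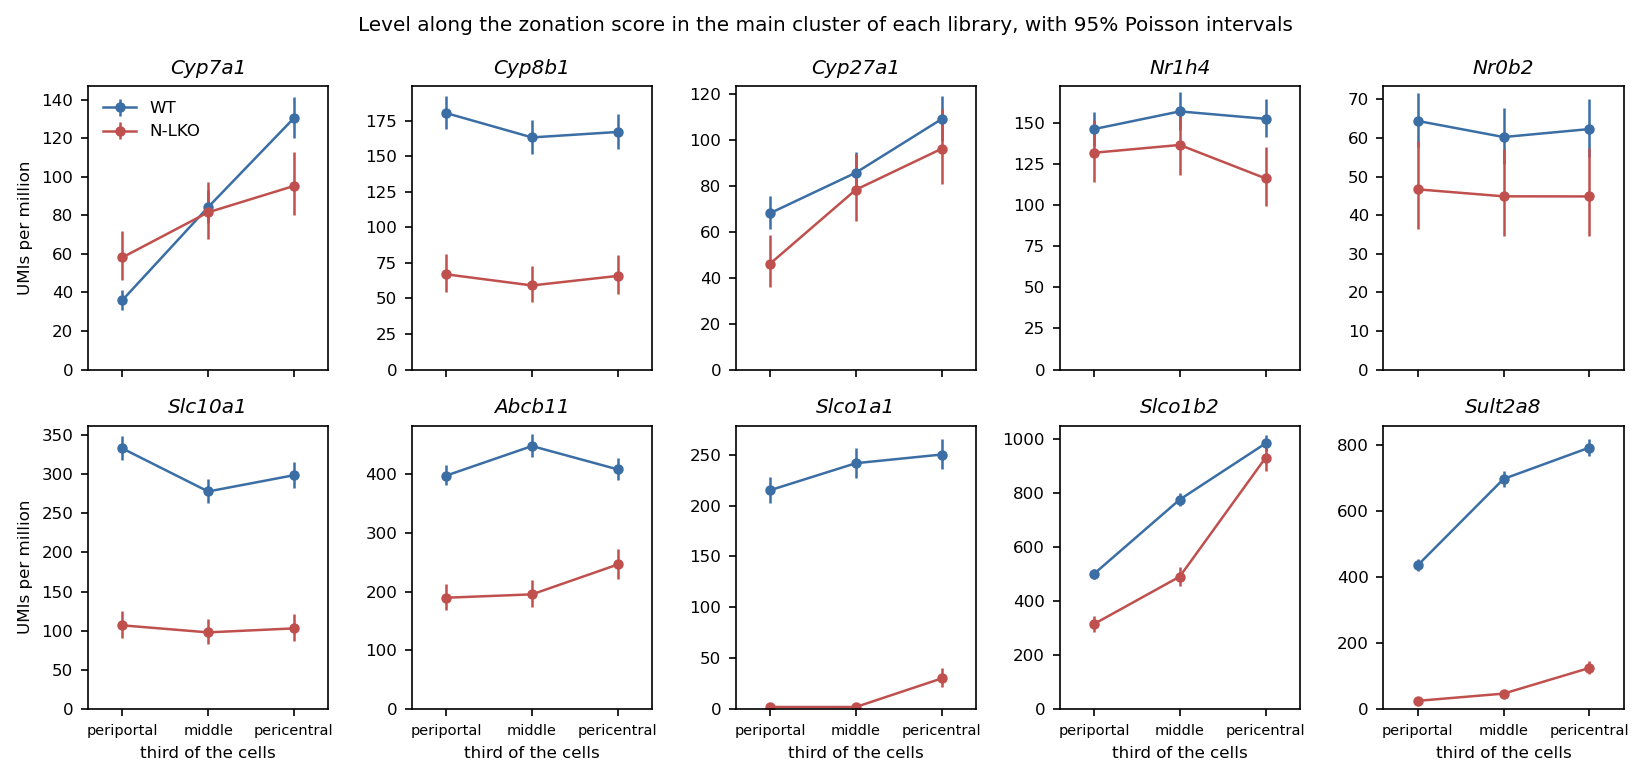
Level (CPM) of the members in the periportal, middle and pericentral ranges of the main cluster of each library, with 95% Poisson intervals. Cyp7a1 climbs from 36.0 to 130.5 CPM in WT and from 58.2 to 95.3 CPM in N-LKO, and the few Slco1a1 UMIs of N-LKO sit in the pericentral range.

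Outside hepatocytes the members differed in how far they stood above the level that free RNA gives. Of 11 other classes, Cyp7a1, Cyp8b1, Nr0b2 and Slco1a1 were above that level in both libraries in 0 classes, Slc10a1 in 1, and Slco1b2 and Sult2a8 in 2, the T-like and endothelial-like cells. Counted in 1 library alone, more classes were above it, with Slco1b2 in 8 and Nr1h4 in 11 classes of N-LKO, Cyp27a1 in 10 and Abcb11 in 9, and Sult2a8 in 6 classes of WT. Nr1h4 stood out in hepatic stellate-like cells, at 392.3 CPM in WT against 388.6 CPM in N-LKO, where free RNA would give 25.0 and 35.1 CPM. That level was above that of the main hepatocyte clusters in both libraries and nearly equal in WT and N-LKO. Nr1h4 was also above free RNA in both libraries in T-like, endothelial-like and macrophage-like cells, at 51.3 to 64.4 CPM in WT and 58.3 to 178.5 CPM in N-LKO. Cyp27a1, which macrophages also use to oxidize cholesterol, was above free RNA in both libraries in 6 classes, among them macrophage-like cells at 43.8 and 39.7 CPM against 19.8 CPM from free RNA in either library. Abcb11, a hepatocyte gene, was above the estimate in 7 classes in both libraries, so a level above the estimate does not by itself mark expression. How many of all genes stood above it in each class was not counted.

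**Figure D4:**
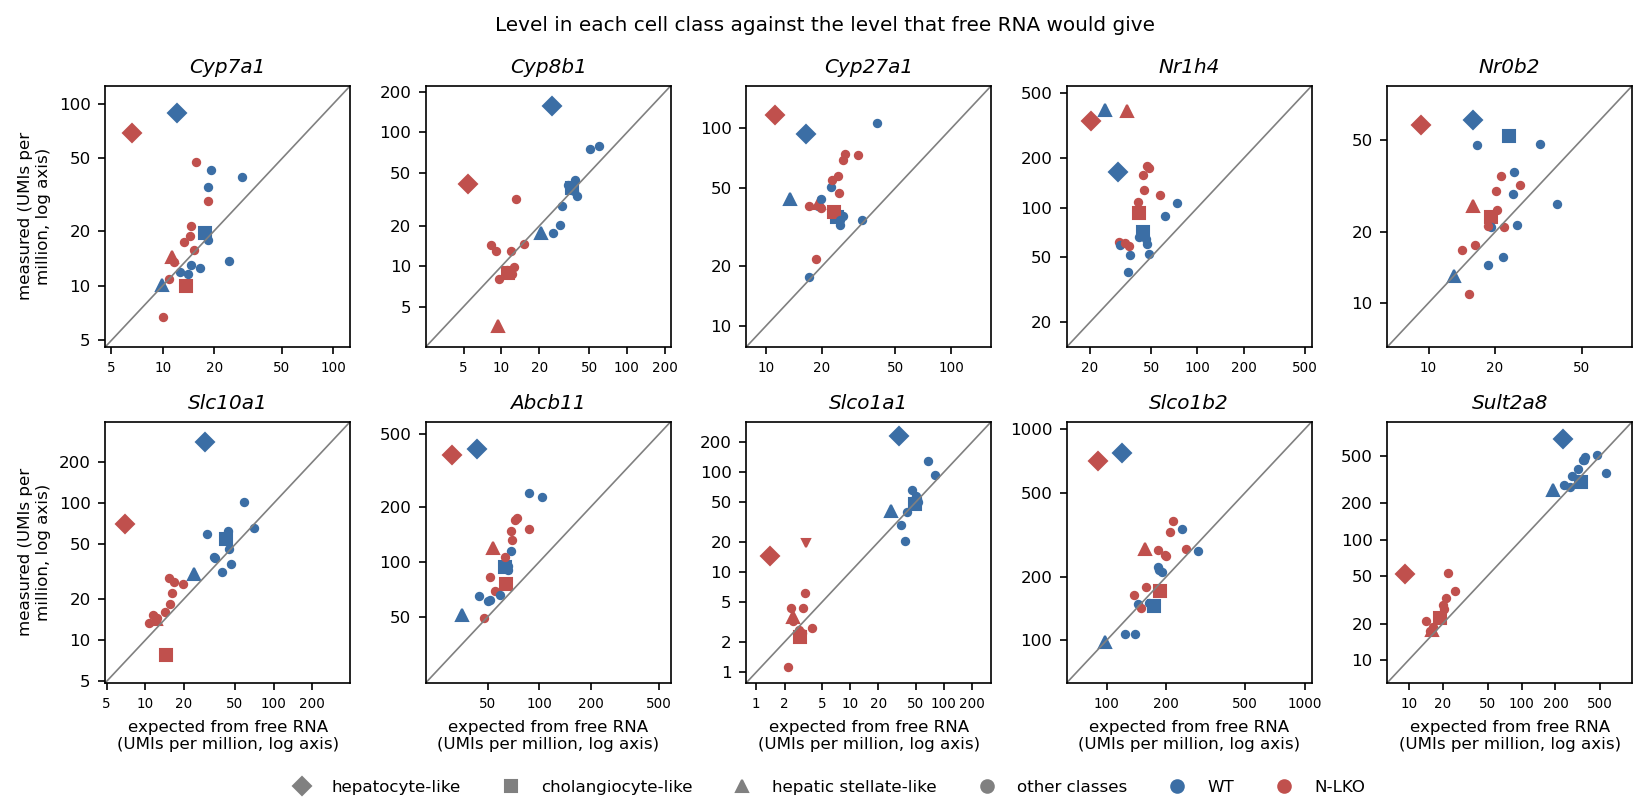
Measured level of each member in each cell class against the level expected from free RNA (both CPM, log axes), with the line of equality in grey. Hepatocyte-like cells (diamonds) lie above the line for all 10 members, and stellate-like cells (triangles) do so for Nr1h4 at 392.3 and 388.6 CPM.

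In cholangiocyte-like cells, 199 in WT and 492 in N-LKO, 0 members were above free RNA in both libraries. Nr0b2 was above it in WT alone (51.6 CPM from 16 UMIs, against 23.3 expected), and Cyp27a1 (37.8 against 23.2) and Nr1h4 (92.2 against 42.0) in N-LKO alone. Sult2a8 was at 300.1 CPM in WT, where 338.2 was expected, and at 22.2 CPM in N-LKO, where 19.1 was expected, both near the level of free RNA. Of the full list of 62 bile acid genes, 15 were above free RNA in both libraries. The share of all genes above it was not counted, so this number is a description only. Among the 15 were Nr5a2 (142.0 and 218.9 CPM), a nuclear receptor that drives Cyp7a1 and Cyp8b1 in hepatocytes, and the basolateral exporters Abcc3 (77.4 and 45.6 CPM) and Abcc4 (38.7 and 53.3 CPM). The flippase gene Atp8b1 (71.0 and 73.4 CPM) and the sulfotransferase Sult2b1 (16.1 and 13.3 CPM, from 5 and 12 UMIs) were also among them. The others were Abcb4, Abcd3, Abcg2, Acot8, Cyp39a1, Cyp7b1, Fgfr4, Hnf4a, Mafg and Papss1. Slc10a2, the apical sodium-dependent uptake transporter of cholangiocytes, was at 22.6 CPM in WT, from 7 UMIs and not above free RNA, and at 61.1 CPM in N-LKO, where 20.1 was expected.

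The other 52 genes of the bile acid list, of which 38 reached 5 CPM in hepatocyte-like cells, were counted in the same way. In all hepatocyte-like cells 1 of 38 was at least 2-fold lower (2.38% of all genes were) and 3 at least 2-fold higher (21.2% of all genes were), with a median log2 ratio of 0.19 against 0.38 over all genes. Abcg8, which with Abcg5 exports cholesterol into bile, was lower at 129.2 and 52.2 CPM (-1.31, -1.46 to -1.16). Abcc4, a basolateral bile salt exporter, was higher at 5.0 and 48.3 CPM (3.26, 2.93 to 3.63), as were Cyp39a1, an oxysterol hydroxylase of a minor synthesis route, at 15.8 and 47.1 CPM (1.57, 1.34 to 1.80) and Nr5a2 at 104.0 and 216.0 CPM (1.05, 0.96 to 1.15).

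Between the main clusters 3 of the 38 were at least 2-fold lower (3.21% of all genes were) and 0 at least 2-fold higher (6.75%), with a median of -0.26. These were Abcg8 at 120.3 and 40.7 CPM (-1.56), its partner Abcg5 at 89.4 and 41.2 CPM (-1.11) and Akr1d1, the steroid 5β-reductase of bile acid synthesis, at 150.9 and 70.3 CPM (-1.10). Abcc4 was at 5.12 and 9.78 CPM (0.94, 0.35 to 1.5) and Cyp39a1 at 17.2 and 30.5 CPM (0.83, 0.51 to 1.14), higher but short of 2-fold, and Nr5a2 was at 101.9 and 87.6 CPM (-0.22). Between the Malat1-rich clusters 7 were at least 2-fold lower (11.8% of all genes were) and 2 higher (17.3%), Abcc4 at 6.40 and 94.7 CPM (3.72) and Cyp39a1 at 17.6 and 67.0 CPM (1.87). Abcc4 and Cyp39a1 were thus higher and Abcg8 lower in N-LKO in all 3 pairs of cells, and Nr5a2, like Nr1h4, turned with the pair.

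By role, 13 other synthesis genes reached 5 CPM, with medians of -0.19 in all hepatocyte-like cells and -0.31 between the main clusters. The medians over all genes were 0.38 and 0.07. The amidation genes Slc27a5 (111.1 and 72.4 CPM) and Baat (158.7 and 90.5 CPM) were below 0 in every pair. The 10 other regulators had medians of 0.54 and -0.14, with 9 of 10 above 0 in all cells and 4 of 10 between the main clusters. The share of all genes above 0 was not counted, so these counts are descriptions only. Of the uptake genes outside the members, Slco2b1 was lower in N-LKO in all 3 pairs (-0.67, -0.80 and -0.64), Slco1a4 stood at 0.67, -0.30 and 0.33 and Slc10a2 at 0.09, 0.27 and -0.61, none past 2-fold. Sult2a1 to Sult2a7 were each under 5 CPM in both libraries, the highest being Sult2a2 (32 UMIs in WT, 13 in N-LKO) and Sult2a7 (26 and 18), and Papss2, which makes the sulfate donor, was at 102.7 and 94.1 CPM (-0.13).

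**Figure D5:**
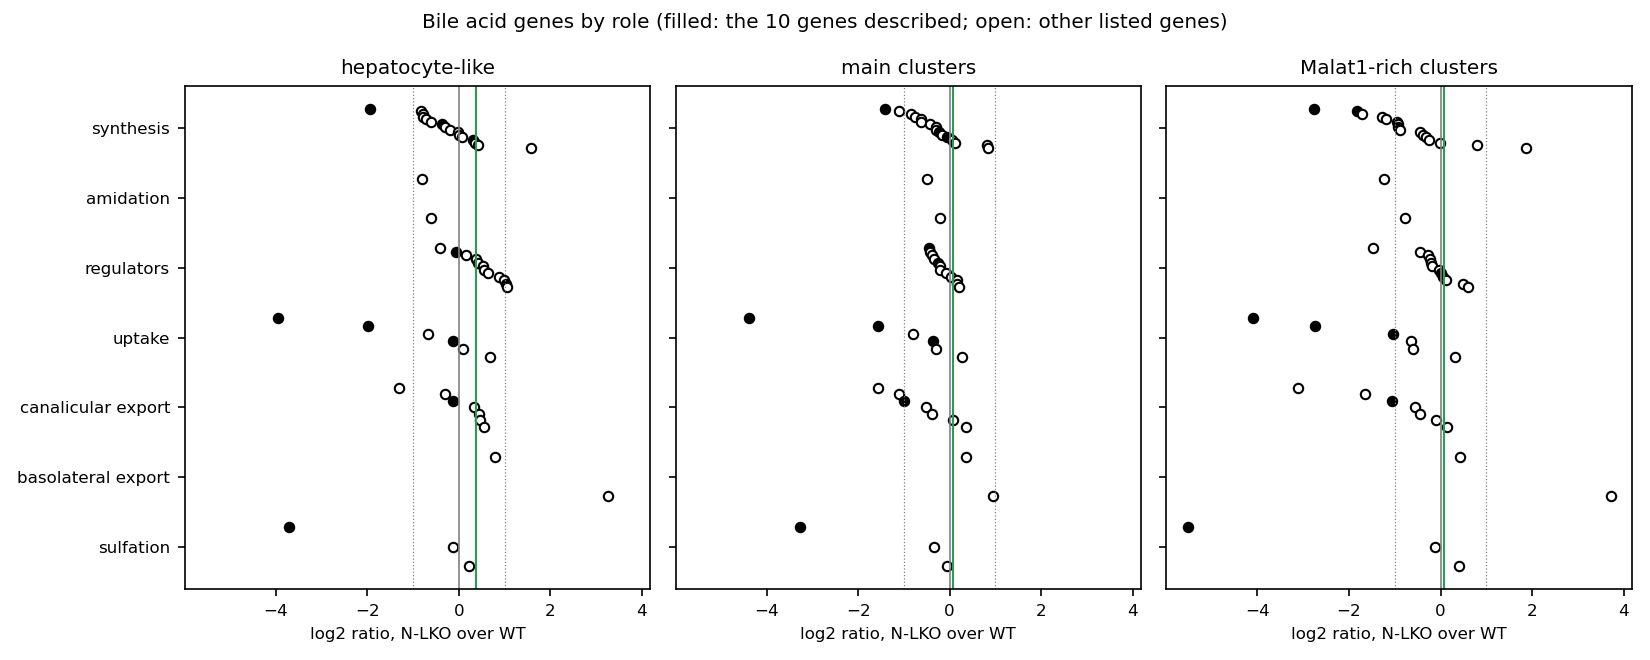
Log2 ratio of N-LKO over WT for every listed bile acid gene with at least 5 CPM, grouped by role, in all hepatocyte-like cells, the main clusters and the Malat1-rich clusters; members are filled and other genes open. The members Slco1a1 and Sult2a8 are the lowest points in all 3 panels, and Abcc4 is the highest in all 3.

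Over the 8 groups of cluster and library, the genes most like 4 of the members were found by Pearson correlation of log2(CPM + 1) among 8211 genes, as a description over groups that share a library. Cyp7a1 was most like Cyp2c29 (0.93), Slco1b2 (0.93) and Slc22a3 (0.92). Slco1a1 was most like Ppp1r3c (0.97), Esrp2 (0.96) and Cyb5b (0.95), and Sult2a8 like Thrsp (0.96), Mup2 (0.96) and BC024386 (0.95). Abcb11 was most like Ppargc1a (0.99), Klf12 (0.99) and Diaph1 (0.98).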

How the data were processed

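Single-cell RNA sequencing (10x Genomics 3′ kit v3) was carried out on 1 WT and 1 N-LKO library. The authors aligned reads and counted UMIs with Cell Ranger (7.1.0 per the file headers) and analysed them in R with Seurat. The deposited values are raw counts of UMIs, whole numbers for each gene in each barcode. The submitters' notes name the build mm9, whereas the gene identifiers were matched here to GENCODE M21 on GRCm38, and coordinates are from GRCm38.

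Barcodes with at least 1000 UMIs, 400 genes and at most 30% mitochondrial UMIs were kept. Doublets were scored with Scrublet in scanpy 1.11.5 (expected rate 10%). The automatic thresholds differed (0.553 in WT, 0.258 in N-LKO), so a score of 0.25 was used for both, removing 1724 (8.55%) and 2363 (10.6%). The 2000 most variable genes outside the bile acid list gave 30 principal components, a 20-neighbor graph and leidenalg 0.10.2 clusters at resolution 0.3. Clusters were named from marker lists at a score of at least 0.15, lowered from 0.2 after the data were seen so that the Malat1-rich N-LKO cluster received a name. Class names were rebuilt here without the authors' annotation, from which a difference from the study may come.

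UMIs were summed per class or cluster and library and given as CPM with exact Poisson intervals. Ratios had 0.5 UMI added and exact conditional binomial intervals (95%, counting error only), and were tested on simulated data. No p-value was computed. Free RNA was profiled from barcodes under 500 UMIs, the lowest of which held 326 UMIs in WT and 377 in N-LKO. Its share of hepatocyte-like cells was the lowest ratio of summed markers of other types to that profile, an upper limit if the profile is of free RNA. For the other classes the share was the ratio of summed hepatocyte markers to that profile. Named genes were the 10 members, the listed genes with at least a 2-fold difference (at most 12), those above free RNA in cholangiocyte-like cells, and the 3 most alike genes for Cyp7a1, Slco1a1, Sult2a8 and Abcb11. Members, lists and tests were chosen with earlier results of these data known. Scripts ran under Python 3.11.15 with scipy 1.17.1, numpy 2.4.6, scikit-learn 1.9.0, pandas 2.3.3, igraph 0.11.9, anndata 0.12.19 and matplotlib 3.10.9.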

Additional observations from a re-analysis of the deposited data

Results flagged for a closer look

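Abcb11 and Slco1b2 were slightly lower in N-LKO than in WT hepatocyte-like cells (log2 ratio -0.12 each) but higher in some other classes that stood above free RNA in both libraries. For Abcb11 the ratio was 0.54 in T-like, 0.84 in endothelial-like and 1.21 in hepatic stellate-like cells. For Slco1b2 it was 0.22 in T-like and 0.55 in endothelial-like cells. These counting intervals did not include 0. Slco1b2 was also at 1.48 in hepatic stellate-like, 0.81 in plasmacytoid dendritic-like, 0.60 in dendritic-like and 0.26 in macrophage-like cells, classes not above free RNA in both libraries. Other classes went the other way, with Abcb11 at -0.67 (-1.19 to -0.09) in neutrophil-like cells and, with intervals that span 0, at -0.32 in cholangiocyte-like, -0.32 in dendritic-like and -0.39 in erythroid-like cells, and Slco1b2 at -0.33 in neutrophil-like cells. In the barcodes under 500 UMIs, which the comparisons of cells did not use, the ratio was 0.13 for Abcb11 and 0.19 for Slco1b2, above the level of the control library. The differences between classes were not tested across samples, since each group had 1 library.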

How the results depend on the processing

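Slco1a1 and Sult2a8 were at least 2-fold lower in N-LKO under all 19 alternatives run (14 planned and 5 added after the data were seen), with log2 ratios of -4.38 to -3.23 and -5.53 to -2.27. Cyp8b1 was so in 18 and Slc10a1 in 17, and Nr1h4 was at least 2-fold higher in 7. The direction turned for Cyp7a1 when hepatocytes were taken by marker share (0.076) and within the main WT cluster (0.18). For Cyp27a1 it turned under a mitochondrial limit of 10% (-0.17), relative to the median of all genes (-0.059), without Malat1-rich and Malat1-poor clusters (-0.24), by marker share (-0.10), between the main (-0.24) and the Malat1-rich clusters (-0.92), within the main WT cluster (-0.57) and at a naming score of 0.2 (-0.36). For Nr1h4 it turned without Malat1-rich and Malat1-poor clusters (-0.26), by marker share (-0.19), between the main clusters (-0.25), within the main WT cluster (-1.02) and at a naming score of 0.2 (-0.37). At a UMI minimum of 500, Abcb11 (0.35), Slco1b2 (0.25) and the median of the members (0.0036) turned.

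The members at least 2-fold lower numbered 7 between the Malat1-rich clusters and 2 within the main N-LKO cluster. Those at least 2-fold higher were 0 at a UMI minimum of 2000, under a mitochondrial limit of 10% or none, without mitochondrial genes in the CPM, relative to the median of all genes, without Malat1-rich and Malat1-poor clusters, by marker share, in all 4 cluster pairings and at a naming score of 0.2. The members' median was -0.65 at a mitochondrial limit of 10%, -0.39 with free RNA subtracted, -0.63 relative to the median of all genes, -0.71 without Malat1-rich and Malat1-poor clusters, -0.64 by marker share, -0.73 and -1.45 between main and Malat1-rich clusters, -0.69 and -0.44 within the main WT and N-LKO clusters and -0.70 at a naming score of 0.2. Other listed genes lower and higher numbered 3 and 7 at a UMI minimum of 500, 5 and 6 at a mitochondrial limit of 10%, 3 and 0 without Malat1-rich and Malat1-poor clusters, 2 and 1 by marker share, 2 and 5 with a filter of 1 CPM, 3 and 0 between the main clusters and 3 and 1 at a naming score of 0.2. They were 7 lower both relative to the median of all genes and between the Malat1-rich clusters. The causes were not tested, but the settings that drop the Malat1-rich N-LKO cluster leave 2105 or fewer N-LKO cells. No paired analysis was possible because each group had 1 library. Depth limits the shared clusters most, where Slco1a1 rested on 4 UMIs in 101 N-LKO cells.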
